A study of Rattus norvegicus with 15 samples.

Results

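Immediate early genes and heat shock genes were examined as a set of 41 probes, for 40 genes, of the 3757 probes on the array. The members were all probes with exactly 1 platform gene symbol beginning with Fos, Jun, Egr and a digit, Atf, Ier, Dusp, Hsp or Dnaj, or equal to Gadd45a, Ddit3, Btg1, Btg2, Klf4, Klf6 or Klf10. Of these probes 23 stood for immediate early and stress genes and 17 for chaperones and their cofactors. The remaining probe was for Hspbap1, whose symbol begins with Hsp although its protein is a binding partner of a small heat shock protein and no chaperone. Fos was the only member with more than 1 probe, OR0720 and OR3846. Liver RNA of male Fischer344 rats (the strain is given as Fischer for 1 control) was measured in 15 samples, 5 per group. The carcinoma group was hepatocellular carcinoma, and the noncancerous group was the cirrhotic liver lying around such tumours. Both groups came from animals kept for 70 weeks on a choline-deficient diet in which defined L-amino acids replace protein, a diet that produces fatty change, cirrhosis and then carcinoma without a chemical carcinogen. The control group received a basal diet for the same 70 weeks, so disease and diet cannot be told apart against it. The labels do not say whether a carcinoma and a noncancerous sample of the same number share an animal, nor whether the samples of a group came from separate animals, so the intervals measure only the spread between these samples.

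Immediate early genes are transcribed within minutes of a growth signal or injury, without new protein synthesis. Their products include the Fos and Jun proteins, which pair to form the AP-1 transcription factor, the zinc finger factors of the Egr family, and the Dusp phosphatases that switch the upstream MAP kinases off again. In liver they are known for the priming phase after partial hepatectomy, and they also respond to handling and to oxygen shortage during tissue removal. Heat shock proteins are chaperones: Hsp70 proteins bind unfolded chains, J proteins (the Dnaj genes) deliver clients to them, Hsp90 matures kinases and receptors, and small heat shock proteins hold back aggregation. The inducible ones are driven by the factor Hsf1, whereas chaperones of the endoplasmic reticulum and Ddit3 answer to the unfolded protein response.

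The promoters below belong to members whose values are given further on, and the marked motifs are those of factors known to act on genes of these families or, for AP-1 and the CCAAT box, motifs found in both classes. RefSeq promoter sequence (rat build GRCr8, a window of 250 bases before to 50 after the start) was matched by gene ID for 31 of the 40 genes. Fos and Hspa1b were among the genes with no promoter entry, so neither was searched for motifs. The last 140 bases before the start are printed, on the gene's own strand. For Egr1 (chr18:26736938-26737077, plus strand) and Egr2 (chr20:21054442-21054581, minus strand) the capitals mark the CArG box, the binding sequence of serum response factor. In Hspb1 (chr12:26432302-26432441, minus strand) and Hspa8 (chr8:50080374-50080513, plus strand) they mark the heat shock element, searched as GAANNTTC or TTCNNGAA, which overlap each other in Hspa8. In Ddit3 (chr7:65001555-65001694, plus strand) they mark a CCAAT box on the other strand. In Hsp90ab1 (chr9:22930283-22930422, plus strand) they mark an AP-1 motif, searched as TGANTCA.
Egr1: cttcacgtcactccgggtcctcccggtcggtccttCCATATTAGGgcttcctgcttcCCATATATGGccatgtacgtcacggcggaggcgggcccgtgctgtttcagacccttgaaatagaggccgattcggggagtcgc
Egr2: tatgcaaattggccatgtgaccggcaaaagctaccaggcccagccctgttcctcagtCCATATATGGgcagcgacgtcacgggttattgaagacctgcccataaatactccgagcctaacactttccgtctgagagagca
Hspb1: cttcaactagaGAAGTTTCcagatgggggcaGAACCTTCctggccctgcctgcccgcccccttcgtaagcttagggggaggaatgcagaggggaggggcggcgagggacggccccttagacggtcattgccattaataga
Hspa8: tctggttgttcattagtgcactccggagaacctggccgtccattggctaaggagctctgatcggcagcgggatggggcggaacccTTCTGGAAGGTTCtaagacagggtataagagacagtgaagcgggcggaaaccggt
Ddit3: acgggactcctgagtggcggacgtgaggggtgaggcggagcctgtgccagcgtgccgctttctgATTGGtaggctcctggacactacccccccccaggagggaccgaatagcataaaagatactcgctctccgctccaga
Hsp90ab1: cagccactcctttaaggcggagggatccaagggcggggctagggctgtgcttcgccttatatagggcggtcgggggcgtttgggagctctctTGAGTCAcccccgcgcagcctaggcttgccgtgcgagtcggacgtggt

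Across the whole windows, searched on both strands, a CArG box stood in 4 of 16 immediate early and stress promoters (Egr1, Egr2, Dusp5 and Klf6) and in 0 of 14 chaperone promoters, against 1.64% of all 33469 promoters of the table. A heat shock element stood in 0 of the 16 and in 5 of the 14 (Hspb1, Hspa8, Dnaja1, Hspb6 and Hspa2), against 15.9% of all promoters. The cyclic AMP response element TGACGTCA was found in 12.5% of the immediate early and stress promoters, 7.14% of the chaperone promoters and 1.83% of all. An AP-1 motif was found in 6.25%, 14.3% and 7.33%, in the same order. Other motifs were about as frequent in both classes: a CCAAT box stood in 62.5%, 57.1% and 37.5%, TGACG in 56.2%, 57.1% and 21.2%, and CCACG, part of the endoplasmic reticulum stress element, in 62.5%, 64.3% and 31.6%. These counts describe letters in a window and say nothing of binding in these samples.

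Every value is a ratio that the authors set to each probe's own median over the 15 samples, so a gene can be compared between samples but not with another gene, and how abundant a tissue marker is cannot be read from it. The ratios were quantile-normalized and taken to log2, so that 0 is close to a probe's middle value and 1 unit is a doubling. The files carry no intensities or spot counts, so how far a probe stood above background is unknown and the number of arrays limits the precision. Between 0 and 229 of the 3757 ratios per array stood at a lower limit of 0.01, with control 1 (229) and noncancerous 1 (209) holding the most. Among the members 10 values in 9 probes stood there, 1 in carcinoma, 4 in noncancerous and 5 in control samples. Tied values at the limit share an averaged rank in their array, so the normalized limit depends on how many are tied. It becomes -2.46 in noncancerous 1 (209 at the limit) and -5.02 in noncancerous 5 (10 at the limit).

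No member passed the adjusted threshold in any comparison. With limma fitted to all 15 samples and Benjamini-Hochberg adjustment over 3757 probes, 0 of 41 members passed an adjusted p of 0.05 in carcinoma against control, in noncancerous liver against control, or in carcinoma against noncancerous liver, and the background over all probes was 0% each time. The smallest adjusted p of a member was 0.609, 0.521 and 0.273 in these 3 comparisons. At an unadjusted p under 0.05, carcinoma against control had 0 members higher (background 3.65%) and 1 lower (background 3.75%). Noncancerous liver against control had 0 higher (background 4.02%) and 0 lower (background 5.62%). Carcinoma against noncancerous liver had 2 members higher, 4.88% of them beside a background of 6.95%, and 5 lower, 12.2% beside a background of 6.28%. Immediate early and stress genes supplied 1 of those 2 and 3 of those 5, and chaperones the others. That lean to lower members depended on the scaling: with the ratios as deposited, or with arrays brought to a common median, 2 members were higher and 2 lower. The comparisons share samples, so their values for the same gene are not independent.

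No member separated its groups fully. In carcinoma against control 0 members lay wholly above and 0 wholly below, where 1.06% and 0.825% of all probes did. For noncancerous liver against control both counts were 0 beside 0.665% and 0.985%, and for carcinoma against noncancerous liver both were 0 beside 1.25% and 1.46%. The median 95% interval of a member reached 1.31 log2 units to either side of its difference, which is the precision that 5 samples per group gave here.

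Both Fos probes measure the same gene, whose product is the AP-1 subunit that pairs with Jun proteins. Probe OR0720 read -0.54, -0.02, -2.23, -2.78 and 0.50 in carcinoma 1 to 5, -0.85, 0.44, 1.0, 0.31 and 0.84 in noncancerous 1 to 5, and 1.48, -0.30, 1.31, -1.11 and -0.50 in control 1 to 5. Carcinoma 3 and 4 were the lowest samples, while the other 3 carcinomas lay within the span of the control samples. The group means were -1.01 ± 1.42 in carcinoma, 0.35 ± 0.73 in noncancerous liver and 0.18 ± 1.16 in control (SD, n = 5 each). The difference was -1.36 (95% interval -2.74 to 0.02, limma adjusted p = 0.383) for carcinoma minus noncancerous and -1.19 (-2.57 to 0.19, adjusted p = 0.715) for carcinoma minus control. For noncancerous minus control it was 0.17 (-1.21 to 1.55, adjusted p = 0.935).

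Probe OR3846 read -0.78, -0.49, -0.58, 1.71 and 0.65 in carcinoma 1 to 5, -0.59, 1.13, -0.23, 0.66 and -0.25 in noncancerous 1 to 5, and 0.59, -0.43, 0.70, 0.51 and -0.72 in control 1 to 5. Its 3 groups overlapped throughout, with means of 0.10 ± 1.06, 0.14 ± 0.72 and 0.13 ± 0.66 in carcinoma, noncancerous and control samples. The differences were -0.04 (-1.16 to 1.08) for carcinoma minus noncancerous, -0.03 (-1.15 to 1.10) for carcinoma minus control and 0.01 (-1.11 to 1.14) for noncancerous minus control, with limma adjusted p of at least 0.982. Carcinoma 4, the lowest sample by OR0720 at -2.78, was the highest by OR3846 at 1.71. Over the 15 arrays the probes had a Pearson r of 0.0058 and a Spearman rho of 0.32, given as a description. The probes thus gave no common value for Fos, and a statement on Fos from either probe alone rests on that probe.

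**Figure D1:**
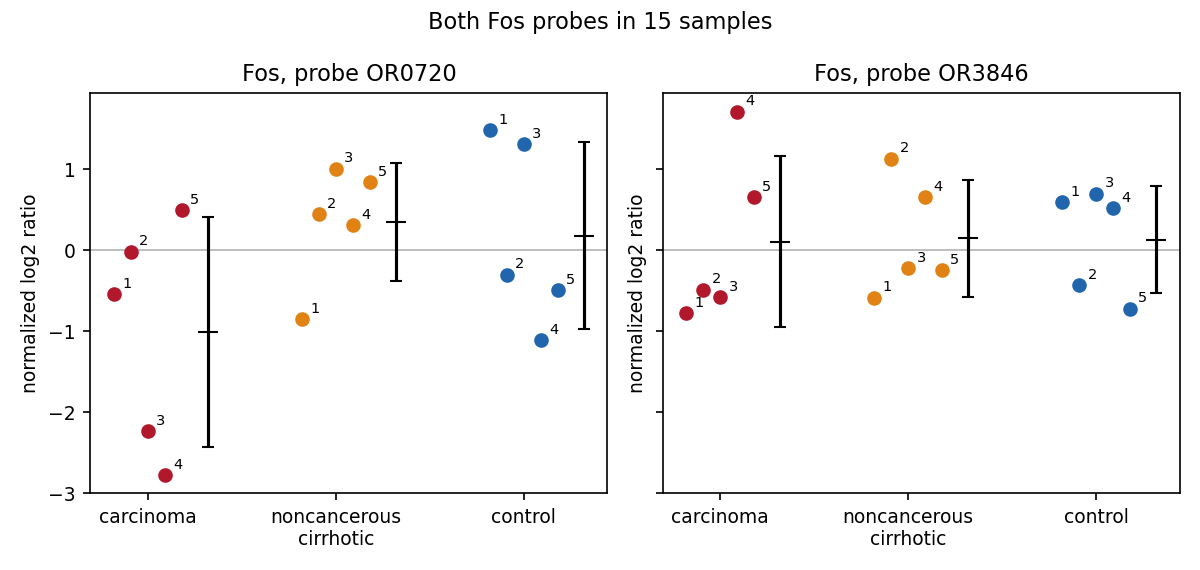
Normalized log2 ratio of both Fos probes (panels) by group, with the sample number beside each point and the mean ± SD (n = 5) at the right of each group. By OR0720 carcinoma 3 and 4 lie at -2.23 and -2.78, while by OR3846 carcinoma 4 is the highest sample at 1.71.

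The other AP-1 genes were Fosl1 and Fosl2, the Fra proteins, and Jun, Junb and Jund. With the Fos probes they made 7 probes, of which 2 were higher and 5 lower in carcinoma than in noncancerous liver, with a median difference of -0.36 and a smallest adjusted p of 0.383. Against control the medians were -0.03 for carcinoma and 0.17 for noncancerous liver. Junb, a Jun protein of early growth responses, read 0.93, -2.26, -0.64, -0.54 and -0.03 in carcinoma, 0.28, 0.80, 0.91, 0.64 and -0.04 in noncancerous liver, and -0.07, -2.22, 2.0, -0.90 and 0.29 in control (samples 1 to 5). The noncancerous samples were bunched at 0.52 ± 0.39, inside the wider spans of carcinoma (-0.51 ± 1.16) and control (-0.18 ± 1.56). Carcinoma minus noncancerous was -1.02 (-2.37 to 0.32, adjusted p = 0.481), and -0.60 without carcinoma 2 for Junb.

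Jun, the main partner of Fos, averaged -0.16 ± 0.93 in carcinoma, -0.31 ± 1.22 in noncancerous liver and -0.26 ± 0.88 in control. Its differences were 0.14, 0.10 and -0.04 for carcinoma minus noncancerous, carcinoma minus control and noncancerous minus control. Noncancerous 1 stood at the lower limit for Jun and for Fosl1, and the other 4 noncancerous samples of Jun lay between 0.02 and 0.50. Jund ran from -2.94 to 1.83 in carcinoma, -1.71 to 1.28 in noncancerous liver and -3.32 to 0.23 in control. Its carcinoma minus control difference of 0.96 was 1.70 without carcinoma 4, past the unadjusted threshold, and 0.40 without control 5. Fosl2 was the widest of the family, from -3.45 to 0.64 in carcinoma, -5.02 to 0.77 in noncancerous liver and -3.39 to 1.58 in control, and its carcinoma minus noncancerous interval ran from -3.69 to 2.06. Fosl1 differed by -0.36 (-1.85 to 1.13) between carcinoma and noncancerous liver.

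Atf2 and Atf3 encode bZIP factors that bind cyclic AMP response elements, and Atf3 is itself induced by stress. Atf2 read 0.48, -1.13, -0.93, -1.23 and -0.73 in carcinoma, 1.07, 0.98, 0.41, -0.36 and 0.73 in noncancerous liver, and 1.29, -2.10, 1.33, -1.19 and 0.02 in control. Carcinomas 2 to 5 lay below all noncancerous samples, and carcinoma 1 lay among them. Carcinoma minus noncancerous was -1.27 (-2.54 to -0.01, adjusted p = 0.375). Atf3 averaged -0.25 ± 0.67 in carcinoma, 0.27 ± 0.39 in noncancerous liver and -0.63 ± 1.61 in control, where control 2 stood at the lower limit. Its noncancerous minus control difference was 0.90 (-0.42 to 2.22, adjusted p = 0.632). For Atf3 this became 0.21 without control 2, and 0.0078 with the running median of neighbouring probes removed.

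The Egr factors bind GC-rich sites, and serum response factor is a known inducer of Egr1. Egr4 had the highest positive carcinoma minus noncancerous difference of the 41 probes. It read 1.44, 0.55, -0.04, -0.43 and 1.95 in carcinoma, 0.65, -1.58, -2.79, 0.51 and -1.58 in noncancerous liver, and 1.15, 0.02, 0.05, -1.32 and -0.76 in control. Carcinomas 1 and 5 exceeded every noncancerous sample, and noncancerous 2, 3 and 5 lay below every carcinoma. The difference was 1.65 (0.26 to 3.04), or 3.14-fold, with an adjusted p of 0.306. Carcinoma minus control was 0.87 (-0.53 to 2.26) and noncancerous minus control -0.78 (-2.17 to 0.61).

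Egr1, the most studied member of its family, read 0.71, 0.47, -0.43, 1.67 and -1.21 in carcinoma, 0.14, 0.02, -0.34, -0.76 and 0.62 in noncancerous liver, and -1.37, 0.86, -1.76, -0.37 and 0.33 in control. The groups overlapped, and the noncancerous samples spread least (-0.06 ± 0.52, against 0.24 ± 1.10 in carcinoma and -0.46 ± 1.10 in control). Its differences were 0.31 for carcinoma minus noncancerous, 0.70 for carcinoma minus control and 0.40 for noncancerous minus control, with intervals that included 0. Egr2 averaged -0.37 ± 0.44 in carcinoma, 0.60 ± 0.92 in noncancerous liver and -0.00 ± 0.94 in control, and carcinoma minus noncancerous was -0.97 (-2.07 to 0.12, adjusted p = 0.419). Egr3 differed by -0.22 (-1.54 to 1.10). Within the family 2 genes were thus higher and 2 lower in carcinoma than in noncancerous liver, with a median difference of 0.04.

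Among the growth arrest and stress genes, Btg1 and Ddit3 were lower in carcinoma than in noncancerous liver at the unadjusted threshold and missed the adjusted one. Btg1, an antiproliferative cofactor, read 0.63, -1.64, -2.13, -0.69 and -0.03 in carcinoma, 0.91, 0.85, 0.10, -0.22 and 1.41 in noncancerous liver, and -0.59, -1.65, 0.34, -1.32 and 0.08 in control. Carcinomas 2, 3 and 4 lay below all noncancerous samples. The difference was -1.38 (-2.65 to -0.12, adjusted p = 0.345) for carcinoma minus noncancerous and 1.24 (-0.03 to 2.50, adjusted p = 0.521) for noncancerous minus control. That adjusted p was the smallest of any member in the comparison of noncancerous liver with control. Carcinoma minus control was -0.14 (-1.41 to 1.12).

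Ddit3 (CHOP), a pro-apoptotic factor of the unfolded protein response, read -0.27, -0.02, -1.03, -0.89 and -0.13 in carcinoma, 0.80, 1.13, 1.73, -0.07 and 0.31 in noncancerous liver, and 0.99, -1.94, 0.82, -0.23 and 0.29 in control. All 5 carcinomas were below 0 and 4 of 5 noncancerous samples above it, with noncancerous 4 (-0.07) overlapping carcinoma 2 (-0.02). Carcinoma minus noncancerous was -1.25 (-2.37 to -0.13, adjusted p = 0.331). Noncancerous minus control was 0.80 (-0.32 to 1.92) and carcinoma minus control -0.45 (-1.58 to 0.67). Gadd45a, a p53 target of the DNA damage response, averaged -0.69 ± 1.68 in carcinoma, 0.10 ± 0.60 in noncancerous liver and -1.04 ± 1.05 in control. On the normalized scale carcinoma 4 was its lowest sample at -3.36. Control 1, at -2.39, stood at the lower limit of 0.01 and was the lowest as deposited. The Gadd45a noncancerous minus control difference was 1.15 (-0.54 to 2.83, adjusted p = 0.632). It was 0.79 without control 1 and 1.90 with the ratios as deposited.

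The Dusp genes encode phosphatases that dephosphorylate MAP kinases. In carcinoma 3 of the 5 were higher and 2 lower than in noncancerous liver, with a median difference of 0.19 and a smallest adjusted p of 0.475. Dusp6, which acts on ERK, read -0.33, -2.52, 3.11, 2.44 and -0.10 in carcinoma, 0.57, 0.88, -0.77, 1.97 and -3.75 in noncancerous liver, and 0.05, 0.02, 0.23, -2.35 and -0.18 in control. Carcinoma and noncancerous samples spanned more than 5 log2 units each, whereas 4 of 5 control samples lay within -0.18 to 0.23. Its differences of 0.74, 0.97 and 0.23 for carcinoma minus noncancerous, carcinoma minus control and noncancerous minus control had intervals that included 0, and for Dusp6 the carcinoma minus control value ran from 0.33 to 1.75 with 1 sample left out. Dusp7 had the highest carcinoma minus control difference of the members, 1.08 (-0.41 to 2.57, adjusted p = 0.751). Dusp1, the classic immediate early phosphatase, averaged 0.00 ± 0.96 in carcinoma, -0.19 ± 0.58 in noncancerous liver and 0.04 ± 0.87 in control. Dusp4 and Dusp5 differed by -0.32 and -0.77 for carcinoma minus noncancerous. The Krüppel-like factors Klf6 and Klf10, the second a TGF-beta response gene, differed by 0.55 (-0.60 to 1.70) and 0.05 (-0.96 to 1.07) in the same comparison.

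Among the chaperones, Hspa1b had the lowest fitted differences of all 41 probes in both carcinoma comparisons. It encodes the stress-inducible cytosolic Hsp70, and its near-identical copy Hspa1a cannot be told apart with confidence by hybridization. Hspa1b read -3.88, -2.27, -0.46, -0.36 and -0.03 in carcinoma, 0.10, 0.71, 0.28, -0.37 and 1.31 in noncancerous liver, and 1.18, -1.04, 1.35, -0.33 and 0.09 in control. All 5 carcinomas were below 0, but carcinomas 4 and 5 reached the noncancerous range, and carcinoma 1 stood at the lower limit of 0.01. Carcinoma minus noncancerous was -1.80 (-3.24 to -0.37, adjusted p = 0.273) and carcinoma minus control -1.65 (-3.09 to -0.21, adjusted p = 0.609). Without carcinoma 1 they were -1.16 and -1.01. Noncancerous minus control was 0.15 (-1.28 to 1.59).

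Hsp90ab1, the constitutive cytosolic Hsp90, had the next lowest carcinoma minus noncancerous difference of the chaperones. It read -1.33, -1.81, -1.11, -1.93 and 0.96 in carcinoma, -0.73, 1.09, 0.02, -0.01 and 1.25 in noncancerous liver, and 0.99, -0.19, 0.78, -0.87 and 0.16 in control. Carcinomas 1 to 4 lay below every noncancerous and every control sample, and carcinoma 5 stood above most of them. Carcinoma minus noncancerous was -1.37 (-2.61 to -0.12, adjusted p = 0.343) and carcinoma minus control -1.22 (-2.46 to 0.03, adjusted p = 0.656).

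**Figure D2:**
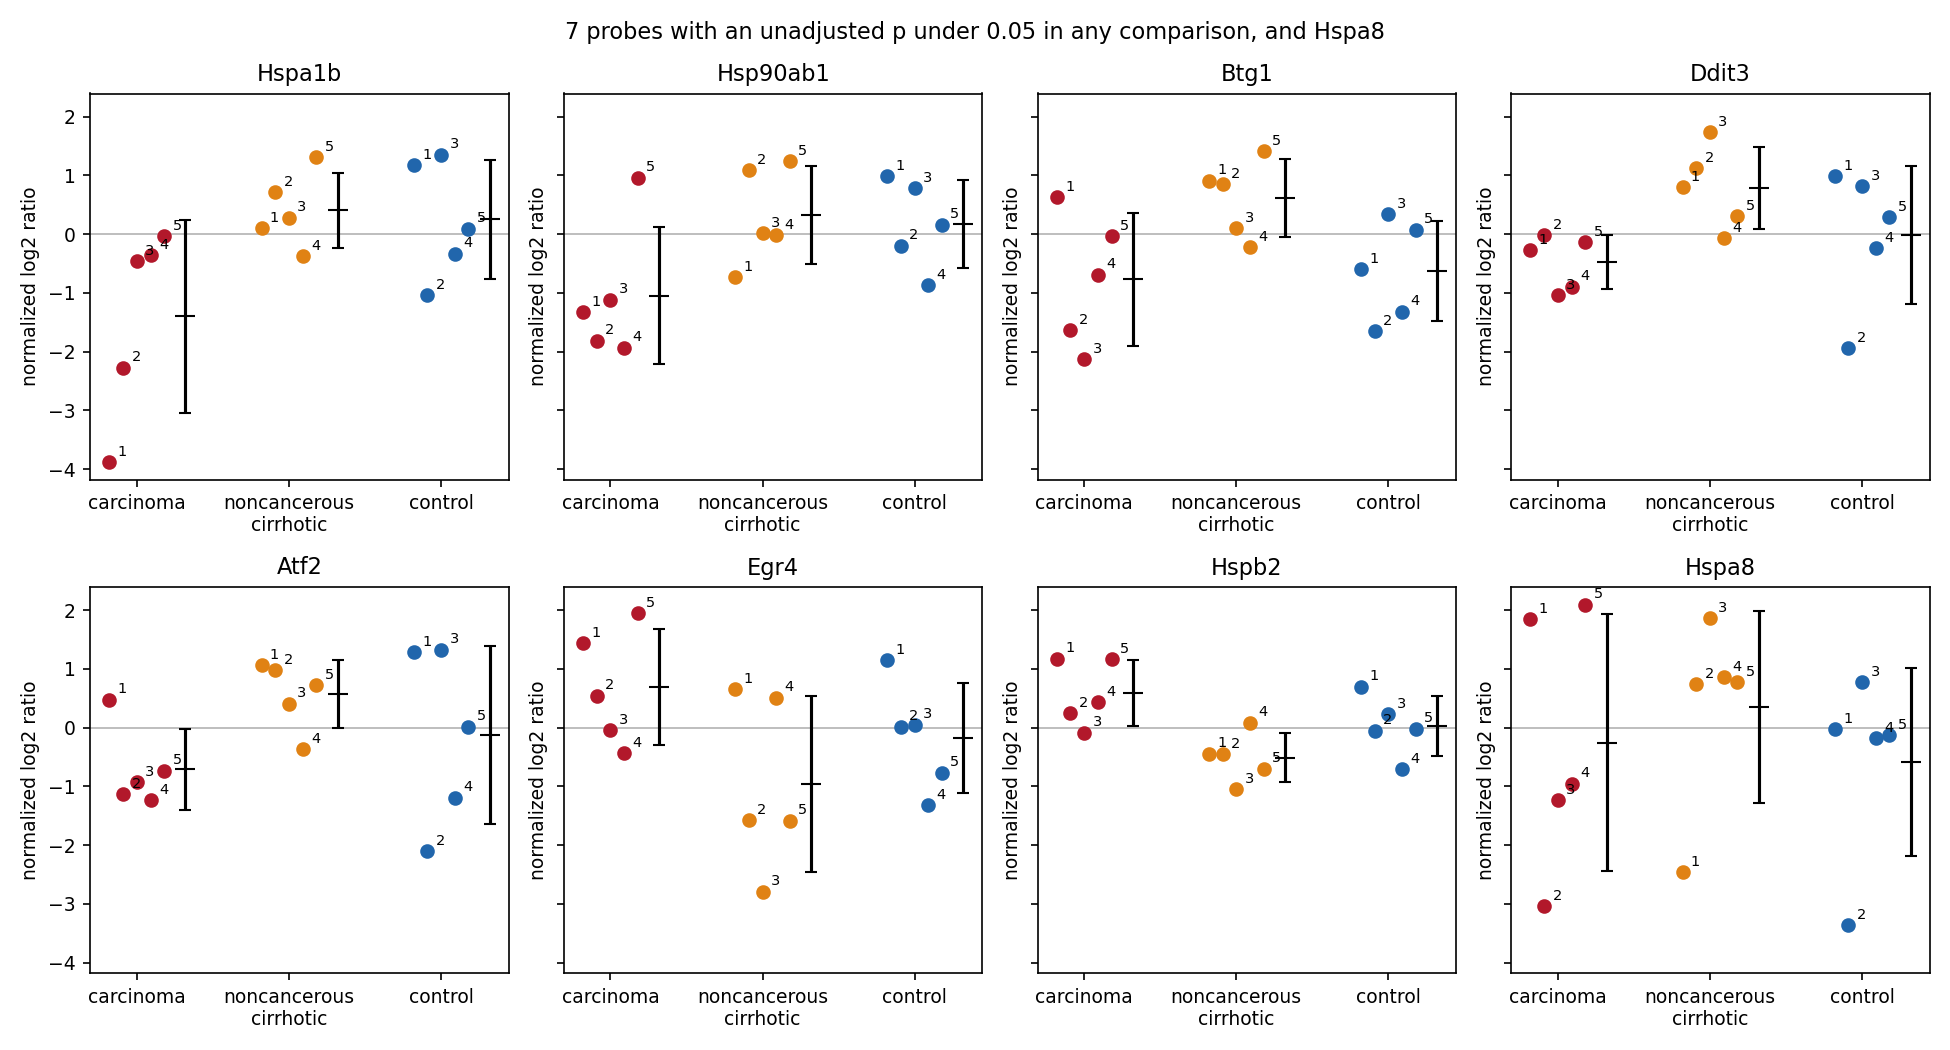
Normalized log2 ratio by group for the 7 probes with an unadjusted p under 0.05 in any comparison, and for Hspa8, with sample numbers and the mean ± SD (n = 5). Hspa1b in carcinoma 1 is at the lower limit. Carcinoma 5 of Hsp90ab1 lies above the other 4 carcinomas, and every panel shows overlapping groups.

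The remaining Hsp70 genes are constitutive or belong to other compartments. Hspa8, the constitutive cytosolic Hsp70, read 1.85, -3.04, -1.23, -0.95 and 2.10 in carcinoma, -2.46, 0.74, 1.86, 0.86 and 0.77 in noncancerous liver, and -0.03, -3.36, 0.78, -0.18 and -0.13 in control. Noncancerous 1 and control 2 stood at the lower limit, and carcinoma 1, at the limit for Hspa1b, was among the highest samples for Hspa8. Its differences were -0.61 (-2.53 to 1.31) for carcinoma minus noncancerous, 0.33 (-1.59 to 2.25) for carcinoma minus control and 0.93 (-0.99 to 2.85) for noncancerous minus control. For Hspa8 the last of these was 0.26 without control 2 and 1.57 without noncancerous 1. Hspa5 (BiP), the Hsp70 of the endoplasmic reticulum, read 0.27, 0.17, -0.87, -1.39 and 0.15 in carcinoma, 0.51, -0.25, 1.96, -0.11 and 0.07 in noncancerous liver, and 0.19, -2.21, 0.43, -0.39 and -1.85 in control. Controls 2 and 5 were the lowest samples and noncancerous 3 the highest. Noncancerous minus control was 1.2 (-0.08 to 2.48, adjusted p = 0.532). Hspa2, Hspa4 and Hspa13 had carcinoma minus noncancerous differences of 0.11, -0.22 and -0.07. Over the 6 Hsp70 probes 1 was higher and 5 lower in carcinoma than in noncancerous liver, with a median of -0.41.

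The small heat shock proteins with an Hspb symbol had 3 of 4 differences above 0 in that comparison, with a median of 0.57. Cryab, a small heat shock protein outside the symbol rule, was lower there and is given further on. Hspb2, a muscle-associated member, read 1.17, 0.25, -0.08, 0.43 and 1.16 in carcinoma, -0.44, -0.45, -1.05, 0.08 and -0.70 in noncancerous liver, and 0.70, -0.05, 0.23, -0.71 and -0.02 in control. Noncancerous 4 was the highest of its group and overlapped carcinoma 3. The difference was 1.10 (0.17 to 2.03, adjusted p = 0.307) for carcinoma minus noncancerous, 0.56 (-0.37 to 1.48) for carcinoma minus control and -0.54 (-1.47 to 0.39) for noncancerous minus control. Hspb1 (Hsp27), the abundant inducible member, read 0.23, 1.02, -1.36, -2.34 and 1.34 in carcinoma, -1.77, -0.38, -0.09, 1.36 and 1.74 in noncancerous liver, and 2.35, -0.61, 2.44, -0.82 and -2.72 in control. Its control samples spanned over 5 log2 units, wider than carcinoma or noncancerous liver, and its 3 group means lay within -0.22 to 0.17. Hspb6 and Hspb3 differed by 1.05 (-0.34 to 2.43) and 0.10 (-1.29 to 1.49) for carcinoma minus noncancerous, where Hspb6 was 0.53 without noncancerous 3, and control 3 of Hspb3 stood at the lower limit.

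All 5 J protein probes had carcinoma minus noncancerous differences below 0, from -0.78 (Dnaja2) to -0.05 (Dnaja1), where 49.3% of all probes were above 0. Their median was -0.15 and their smallest adjusted p 0.522. The shared sign depended on the processing and on single samples. Dnajc3 was 0.09 with the ratios as deposited and 0.29 with the running median of neighbouring probes removed, and the rest stayed below 0 in these settings. Dnaja1 reached 0.31 without carcinoma 2, Dnajb9 0.12 without carcinoma 1 and Dnajc3 0.24 without noncancerous 2. Dnaja2 and Dnajc5 stayed below 0 with any 1 sample left out. Against control 1 of 5 was above 0 in carcinoma and 4 of 5 in noncancerous liver. Dnajb9 and Dnajc3, which serve BiP in the endoplasmic reticulum, differed by -0.15 (-1.27 to 0.97) and -0.09 (-1.27 to 1.09), and Dnajc5, a synaptic vesicle J protein, by -0.50 (-1.88 to 0.88). Hspbp1, a nucleotide exchange cofactor of Hsp70, averaged -0.04 ± 0.81 in carcinoma, -0.02 ± 2.07 in noncancerous liver and 1.43 ± 1.70 in control. Controls 1 to 4 lay between 0.99 and 3.27 and control 5 at -1.17, while noncancerous 3 was the highest sample of all at 3.55. The differences were -1.47 (-3.34 to 0.39, adjusted p = 0.724) for carcinoma minus control and -1.46 (-3.32 to 0.40, adjusted p = 0.584) for noncancerous minus control. Without noncancerous 3 the Hspbp1 difference between noncancerous liver and control was -2.41, past the unadjusted threshold, and without control 5 carcinoma minus control was -2.15, also past it. Hspbap1 differed by -0.90 (-2.30 to 0.50) for carcinoma minus noncancerous and -1.14 (-2.54 to 0.26) for carcinoma minus control, with carcinomas 1 and 5 at -2.14 and -2.52, and -0.73 against control without carcinoma 5.

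**Figure D3:**
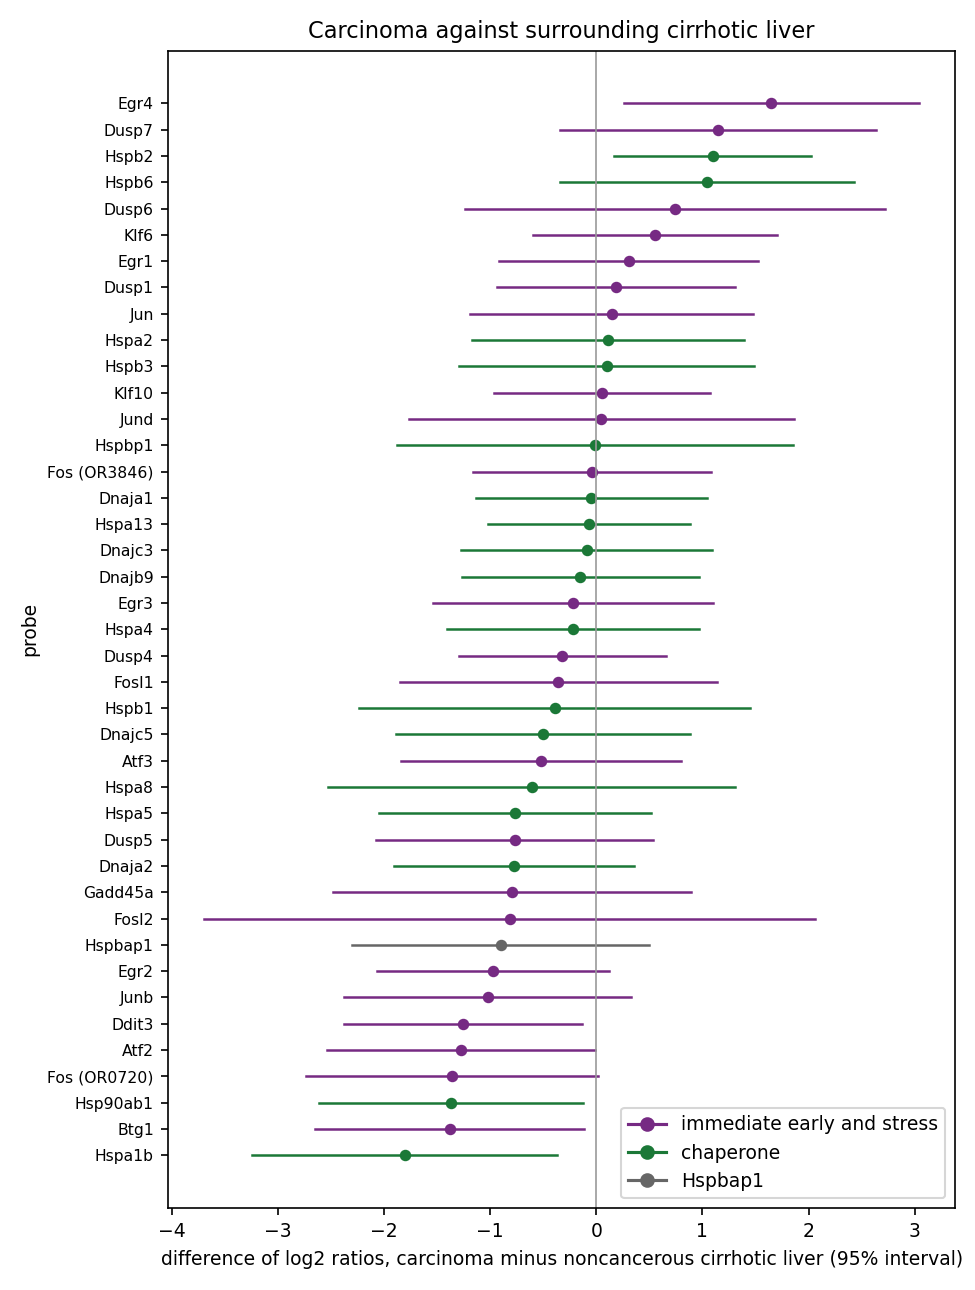
Difference of normalized log2 ratios, carcinoma minus noncancerous, for each of the 41 probes with its 95% interval from limma, coloured by class and ordered by size. Hspa1b (-1.80) is lowest and Egr4 (1.65) highest, and 7 intervals leave out 0 before any adjustment.

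The immediate early and stress genes were then set beside the chaperones in the 3 tissues. In carcinoma minus noncancerous the median difference was -0.32 over the 23 immediate early and stress probes, 14 of them below 0, and -0.15 over the 17 chaperone probes, 13 of them below 0, with -0.02 over all probes. In noncancerous minus control the medians were 0.40 (16 of 23 above 0), 0.13 (11 of 17 above 0) and 0.02 over all probes. In carcinoma minus control they were -0.03 (11 of 23 above 0), -0.16 (7 of 17 above 0) and 0.00. Of all probes 49.3%, 50.7% and 50.1% were above 0 in carcinoma minus noncancerous, noncancerous minus control and carcinoma minus control. The class medians carry no test, and some change sign with the scaling. With arrays brought to a common median, the median over all probes became 0.15 in carcinoma minus control, 0.11 in noncancerous minus control and 0.07 in carcinoma minus noncancerous. On that scale the immediate early and stress and the chaperone medians were -0.21 and 0.0102 in carcinoma minus noncancerous, 0.25 and 0.0989 in noncancerous minus control, and 0.0544 and 0.0632 in carcinoma minus control. The counts below 0 were then 12 of 23 and 8 of 17 in carcinoma minus noncancerous, and 9 of 23 and 7 of 17 in noncancerous minus control. Relative to all probes, the immediate early and stress median was thus higher in noncancerous liver than in control and lower in carcinoma than in noncancerous liver on both scales.

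Sample by sample, the mean of the immediate early and stress probes was 0.04, -0.47, -0.65, -0.42 and 0.28 in carcinoma 1 to 5, -0.13, 0.16, 0.05, 0.35 and -0.30 in noncancerous 1 to 5, and 0.15, -0.80, 0.37, -0.94 and -0.37 in control 1 to 5. Controls 2 and 4 were the lowest samples of all, and controls 3 and 1 were among the higher ones. The chaperone mean was -0.38, -0.62, -0.06, -0.27 and 0.19 in carcinoma, -0.25, 0.12, 0.18, -0.12 and 0.23 in noncancerous liver, and 0.19, -0.19, -0.07, 0.16 and -0.10 in control. Carcinomas 1, 2 and 4 were the lowest samples for chaperones, and the groups overlapped in both classes.

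The immediate early and stress mean minus the chaperone mean came to -0.02 ± 0.38 in carcinoma (-0.59 to 0.42), -0.01 ± 0.37 in noncancerous liver (-0.53 to 0.47) and -0.32 ± 0.58 in control (-1.10 to 0.44; SD, n = 5 each). Control 4 was the lowest at -1.10, and control 3 at 0.44 lay near the highest noncancerous sample. The median within-group SD of a probe was 0.98, 0.72 and 1.05 for immediate early and stress genes in carcinoma, noncancerous and control samples, 0.87, 0.75 and 0.94 for chaperones, and 0.91, 0.88 and 0.91 for all probes. In these bulk samples a change in the share of a cell type cannot be told apart from a change of RNA per cell.

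**Figure D4:**
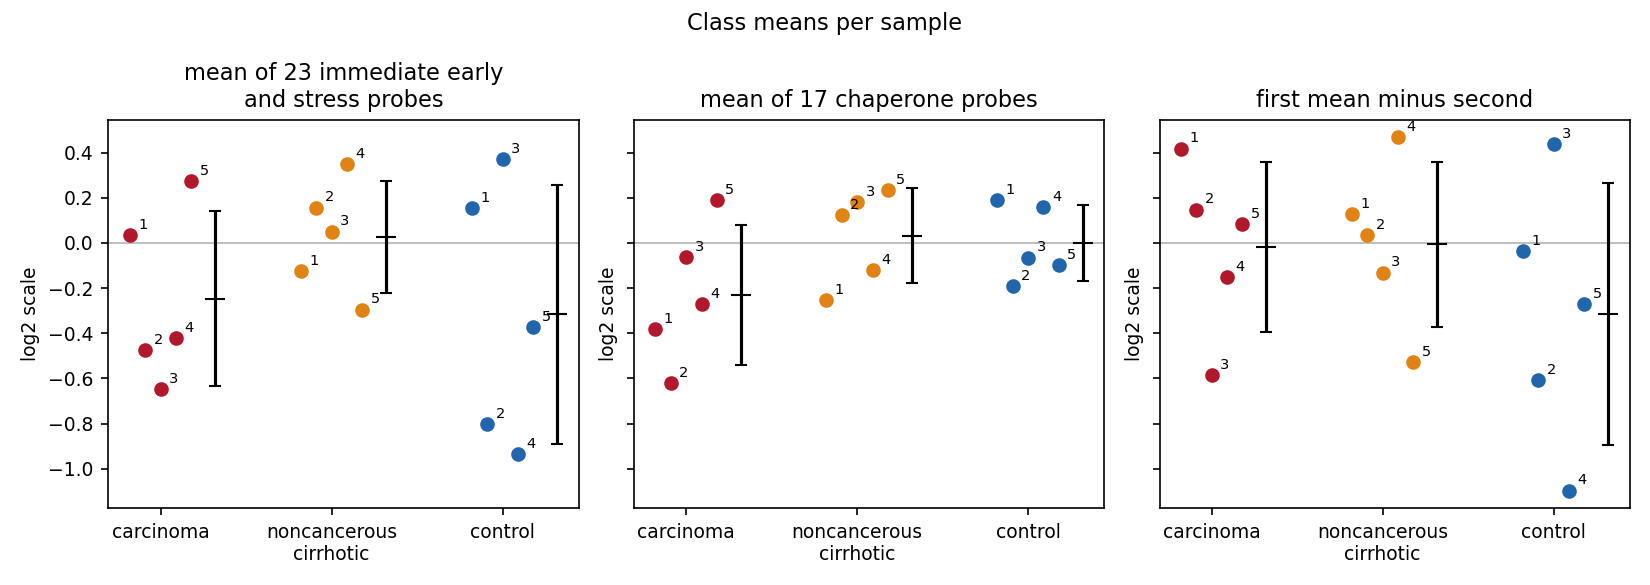
Mean normalized log2 ratio of the 23 immediate early and stress probes (left) and of the 17 chaperone probes (middle), and their difference (right), in each sample, with mean ± SD (n = 5). The control samples spread more for immediate early and stress genes (0.57) than for chaperones (0.17).

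The level of the probes that neighbour a member in the array's numbering also differed between groups. A running median over neighbouring probes, taken as the local level, reached from -0.93 to 0.89 at the members in noncancerous minus control, from -0.87 to 0.68 in carcinoma minus noncancerous and from -0.38 to 0.34 in carcinoma minus control. The member's own difference had the sign of its local level for 35, 31 and 23 of 41 probes in these comparisons. The same share over all 3757 probes was not counted, so it is unknown whether the members differ from other probes in this. Both Fos probes lay in regions of opposite level, 0.47 at OR0720 and -0.93 at OR3846 in noncancerous minus control. Egr4 and Hspb2 lay where carcinoma minus noncancerous was 0.61 and 0.62 locally, and Btg1, Ddit3 and Atf2 where it was -0.30, -0.36 and -0.35. With the local level removed, Hspa1b and Hspbap1 were the only members past the unadjusted threshold in carcinoma minus noncancerous, at -1.45 and -1.05. In carcinoma minus control Hspa1b (-1.75), Hsp90ab1 (-1.40) and Fos by OR0720 (-1.29) passed it, and no adjusted p was below 0.490. The class medians without the local level were -0.21 and -0.06 (immediate early and stress, chaperone) in carcinoma minus noncancerous, 0.22 and -0.05 in noncancerous minus control, and 0.04 and -0.16 in carcinoma minus control. The part of the numbering in the fitted differences was not tested further.

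Pathway genes outside the symbol rule were counted in the same fit. Of 42 listed other immediate early or stress genes, 27 were measured by 28 probes. None passed the adjusted threshold in any comparison by limma. At the unadjusted threshold Arc was higher in carcinoma than in control (1.02), and in noncancerous liver against control Cebpb was higher (1.98) and Socs3 lower (-1.21), with 0 of 28 probes past it in carcinoma against noncancerous liver (background 6.95% higher and 6.28% lower). The single calls against control stand beside backgrounds of 3.65% higher for carcinoma, and 4.02% higher and 5.62% lower for noncancerous liver. Cebpb encodes a factor of the acute phase and regeneration, and Socs3 an inhibitor of cytokine signalling. The list's medians were 0.03, 0.36 and -0.24 for carcinoma minus control, noncancerous minus control and carcinoma minus noncancerous.

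Of 50 listed other proteostasis genes, 22 were measured, and 0 passed the adjusted threshold. In carcinoma against control P4hb, a protein disulfide isomerase, was higher at the unadjusted threshold (1.21), 1 of 22 beside a background of 3.65%. In noncancerous liver against control 2 of 22 were higher (background 4.02%), Cryab (1.09), a small heat shock protein, and Serpinh1 (1.52), the collagen chaperone Hsp47. The 4 of 22 that were lower (background 5.62%) were Pdia3 (-1.17), Fkbp1a (-1.95), Hmox1 (-1.44) and Hmox2 (-1.73). In carcinoma against noncancerous liver Pdia3 (1.96) and Fkbp1a (1.22) were higher, 2 of 22 beside 6.95% of all probes, and Cryab was lower (-1.83), 1 of 22 beside 6.28%. The medians of this list were -0.05, -0.30 and 0.24 in the order used for the previous list.

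Cell type markers also varied between samples. The mean over 8 of 8 listed hepatocyte markers was 0.31 ± 0.77 in carcinoma, -0.01 ± 1.22 in noncancerous liver and -0.29 ± 0.76 in control. For 5 of 7 stellate cell and myofibroblast markers it was 0.01 ± 0.29, -0.38 ± 0.24 and -0.06 ± 0.41, and for 5 of 8 lymphocyte markers -0.20 ± 0.65, 0.37 ± 0.58 and -0.37 ± 0.58. Both lists were split. In noncancerous minus control 3 of the 5 stellate cell and myofibroblast markers were above 0, with a median of 0.0025. At the unadjusted threshold 2 were lower there (background 5.62%). In carcinoma minus noncancerous 3 of the 5 lymphocyte markers were above 0, with a median of 0.15. At the unadjusted threshold 1 was lower there (background 6.28%). The 2 measured of 5 macrophage markers averaged 0.58 ± 0.27, -0.36 ± 0.68 and -0.61 ± 1.15. The 2 of 5 endothelial markers averaged -0.47 ± 0.67, 0.17 ± 0.44 and 0.32 ± 0.82, and the 2 of 6 cholangiocyte markers -0.24 ± 0.69, -0.59 ± 0.45 and 0.35 ± 0.31. The 2 of 4 neutrophil markers averaged 0.18 ± 0.76, -0.20 ± 0.46 and 0.01 ± 0.63, and the 4 of 4 tumour and preneoplastic markers 0.11 ± 0.67, 0.40 ± 0.81 and 0.24 ± 0.90. No marker passed the adjusted threshold, and the part of cell makeup in the members' values was not tested.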

How the data were processed

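RNA of 15 rat liver samples was measured on arrays, and the groups and numbers were read from the sample titles. The authors deposited linear ratios of each probe to its own median over all samples, as the values show: all 3757 probes had a median of 1 within 1e-06, and no ratio was below 0.01. How background was handled, and on which array and with which programs, is not given in the sources used here. Gene symbols came from the platform annotation (3440 probes with 1 symbol, 4 with several, 313 with none listed), and all 41 members matched a RefSeq gene. A probe listed with several symbols was left out. The ratios were quantile-normalized, taken to log2 and fitted in limma 3.58.1 (R 4.3.3), with group as the only term, all 15 samples, a mean-variance trend and Benjamini-Hochberg adjustment over 3757 probes. The fit was also run on known changes added to shuffled residuals of these arrays, to check that the fitted differences matched them on average. How many of those changes passed the adjusted threshold is not given here. Motifs were searched with Python 3.11.15 and figures drawn with matplotlib 3.10.9. The members and lists were chosen with earlier results of these data known. The rule for naming took every Fos probe, the main members of each family, and those past a threshold or with the highest or lowest difference. Correlations of same-numbered deviations from the group means ran from -0.34 to 0.39 over the 3 comparisons. Between carcinoma and noncancerous samples 1 to 5 they were 0.39, -0.21, 0.12, -0.12 and -0.24. Different-numbered pairs are not set beside them, so they cannot tell whether same-numbered samples share an animal. The highest correlation between arrays was 0.73, so no array's values were a copy of another's. Whether 2 samples came from 1 animal cannot be read from it. Alternatives covered the normalization, the lower limit, a pseudocount of 0.1, the fit, and leaving out samples.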

Additional observations from a re-analysis of the deposited data

Results flagged for a closer look

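Of 123 sets of 5 values (each probe in each group), 9 held a sample whose gap to its nearest neighbour exceeded Dixon's critical value, and chance flags about 5% of sets. In 5 of them the sample stood at the lower limit of 0.01: Fosl1, Jun and Hspa8 in noncancerous 1 (-2.46 each), Fosl2 in noncancerous 5 (-5.02) and Hspa8 in control 2 (-3.36). Klf10 in noncancerous 1 was also below its group, at -0.85, and Dusp6 in control 4 was at -2.35. Hsp90ab1 in carcinoma 5 lay above the other carcinomas at 0.96, and Hspbp1 in noncancerous 3 lay above its group at 3.55. Noncancerous 1 supplied 4 of the 9, and that array had 209 values at the limit over all probes.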

How the results depend on the processing

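No member passed the adjusted threshold under 11 alternatives or with any of the 15 samples left out, and the smallest adjusted p of a member was 0.132 (array weights). The count past the unadjusted threshold varied. In carcinoma minus control it was 1, and 0 with values at the limit set to missing, with only the groups compared, or without control 1 and noncancerous 1 together, 3 with the level of neighbouring probes removed (a running median), and 0 to 3 with 1 sample left out. In carcinoma minus noncancerous it was 7, and 4 with values as deposited or with arrays brought to a common median, 10 with array weights, 6 without the variance trend, 5 with limit values missing, 2 with the running median removed, and 3 to 8 with 1 sample left out. In noncancerous minus control it was 0, and 2 with limit values missing or without control 1 and noncancerous 1 together, 1 with the pseudocount, with only probes having no value at the limit, without the variance trend, with only the groups compared or with array weights, and 0 to 2 with 1 sample left out. With the sample number as a replicate block the counts were 1, 7 and 0, none past the adjusted threshold. The chaperone median in carcinoma minus control was -0.16, and 0.0632 with median scaling and -0.26 to 0.0579 with 1 sample left out, the highest without control 5.

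For Fos by OR0720, noncancerous minus control (0.17) became -0.0805 as deposited, -0.0793 with median scaling, -0.30 with the running median removed, and -0.15 to 0.49 with 1 sample left out. For Fos by OR3846, carcinoma minus control (-0.03) became 0.0337 as deposited, 0.0544 with median scaling, 0.23 with the running median removed, 0.0800 without control 1 and noncancerous 1 together, and -0.43 to 0.19 with 1 sample left out. Its carcinoma minus noncancerous (-0.04) became 0.0465 as deposited, 0.0660 with median scaling, -0.72 with the running median removed, and -0.44 to 0.21 with 1 sample left out. Its noncancerous minus control (0.01) became -0.0127 as deposited, -0.0116 with median scaling, 0.95 with the running median removed, and -0.24 to 0.19 with 1 sample left out. The cause of these sign changes was not tested. The 14 probe differences followed were those of Fos and those past the unadjusted threshold in the main fit. The latter were thus chosen for lying away from 0. Of 362 alternative values for the 14, 334 kept their sign, and the 28 that did not were all for Fos. Over all 41 members sign changes were not limited to Fos. With the running median removed 15 differences changed sign in noncancerous minus control, 9 in carcinoma minus noncancerous and 1 in carcinoma minus control. As deposited the counts were 7, 7 and 5. Leaving out carcinoma 1 moved Hspa1b most, to -1.16 (carcinoma minus noncancerous) and -1.01 (carcinoma minus control), and without carcinoma 4 Fos by OR0720 was -0.76 in carcinoma minus control. The immediate early and stress mean minus the chaperone mean in control was -0.12 without control 4.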
